A study of Mus musculus with 6 samples.

Results

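The 78 protein-coding genes whose symbols are built from Mrpl or Mrps and a number are the members described here, and all but Mrps36 encode proteins of the mitochondrial ribosome. The rule that picked them from the 54532 genes of the deposited table used name and gene class alone and no measured value. It was set with earlier results of these data known. The study compared RNA from 3 libraries labelled as lung of aged mice, 18 months old, with 3 libraries labelled as lung of young mice, 3 months old. The sources used here give no strain, sex or genotype and name no treatment. They do not say that each library is a different animal, and every p-value below then rests on a spread between libraries that could be technical. The unit is FPKM, fragments per kilobase of gene scaled to the size of the library, and values of single libraries are given in the order of their labelled numbers. A mean is given ± SD over 3 libraries, and a log2 difference, aged minus young, ± SE from limma.

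Mitochondria keep a small genome that codes for a few subunits of the respiratory chain, and these are made inside the organelle by its own ribosome. That ribosome has a small subunit, which holds the messenger RNA and reads the codons, and a large subunit, which joins the amino acids and feeds the new protein into the inner membrane. Its RNA comes from the mitochondrial genome, whereas every protein is encoded in the nucleus, made in the cytosol and imported. Many of the proteins descend from bacterial ribosomal proteins, and the others were added in the mitochondrial lineage. Inherited defects in several of them weaken the respiratory chain in humans.

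The label lung was checked against marker genes, and the data went against it. Of 13 lung and blood cell markers, 11 stayed under 1 FPKM in every library, and the summed level of 3 alveolar type 2 markers was at most 0.269 FPKM. The 4 mesenchymal markers summed to 892 to 927 FPKM in aged libraries and 1086 to 1115 FPKM in young libraries. They did not move together. Col1a1 averaged 164 FPKM in aged libraries and 245 FPKM in young libraries, and Col1a2 averaged 220 and 335 FPKM. Vim overlapped, with means of 497 and 495 FPKM, and Pdgfrb was higher in aged libraries, at 23.4 against 21.4 FPKM. Hopx, the highest alveolar type 1 marker, lay at 5.68 to 6.48 FPKM in aged libraries and 9.998 to 10.4 FPKM in young libraries. RNA of 7 kidney markers summed to 0.927 to 1.55 FPKM in aged libraries. In young libraries the sums were 129.1, 0.551 and 25.6 FPKM, so young libraries 1 and 3 stood apart. Most of this was Kap, at 115.7 FPKM in young library 1 and 21.9 FPKM in young library 3. Umod, Slc34a1, Slc22a6 and Lrp2 were also highest in these libraries. Slc12a1 stood apart in young library 1 only, and Aqp2 in neither. Aged and young are therefore used below as the words of the labels. The part that any difference in cell content has in the results was not tested. Recovered read totals ran from 16649061 to 16906850 in aged libraries and from 17266815 to 17456715 in young libraries.

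Members went both ways, mostly by little. Of the 77 members that passed the filter on low values, 43 (55.8%) passed the limma test at an adjusted p of 0.05, where 60.0% of all 15197 tested genes did, a share close to that of the members. Of these, 30 members (39.0%) rose in aged libraries, where 27.7% of all tested genes did, and 13 (16.9%) fell, where 32.3% did. The median log2(FPKM + 1) difference, aged minus young, was 0.10 over members and -0.03 over all tested genes. In bulk RNA such as this, fewer cells of a type and less RNA per cell cannot be told apart. With only young library 2 kept among the young, since the others held kidney RNA, 29 members (37.7%) passed the test, 18 of them higher, where 41.0% of all tested genes passed. The balance over all genes turned with the setting. Of called genes, 46.2% were higher in the values as deposited, 55.3% after median centring and 51.9% after rescaling to TPM, where 19206 genes passed the filter. Of called members, 69.8% were higher in the values as deposited, 75.5% after median centring and 71.7% after rescaling to TPM.

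Sizes were small for most members. In log2(FPKM + 1) values, Mrps6 was the only member to reach a 2-fold change, and 6 of the 43 reached 1.5-fold. All values of aged libraries lay above all values of young libraries for 31 members, or 40.3%, where 31.3% of all tested genes did this. They lay below for 18 members, or 23.4%, where 35.6% of all tested genes did this, and the groups overlapped for the other 28. Over both directions, 66.9% of all tested genes had groups apart. All 43 members past the threshold had groups that did not overlap. The 34 members not past it differed by at most 0.29 on the log2(FPKM + 1) scale. Replicates were close, with a median coefficient of variation over members of 5.91% in aged libraries and 5.72% in young libraries. Aged library 3 had the lowest of the 3 aged values for 52 of the 77 members, against 10 for aged library 1 and 15 for aged library 2.

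**Figure D1:**
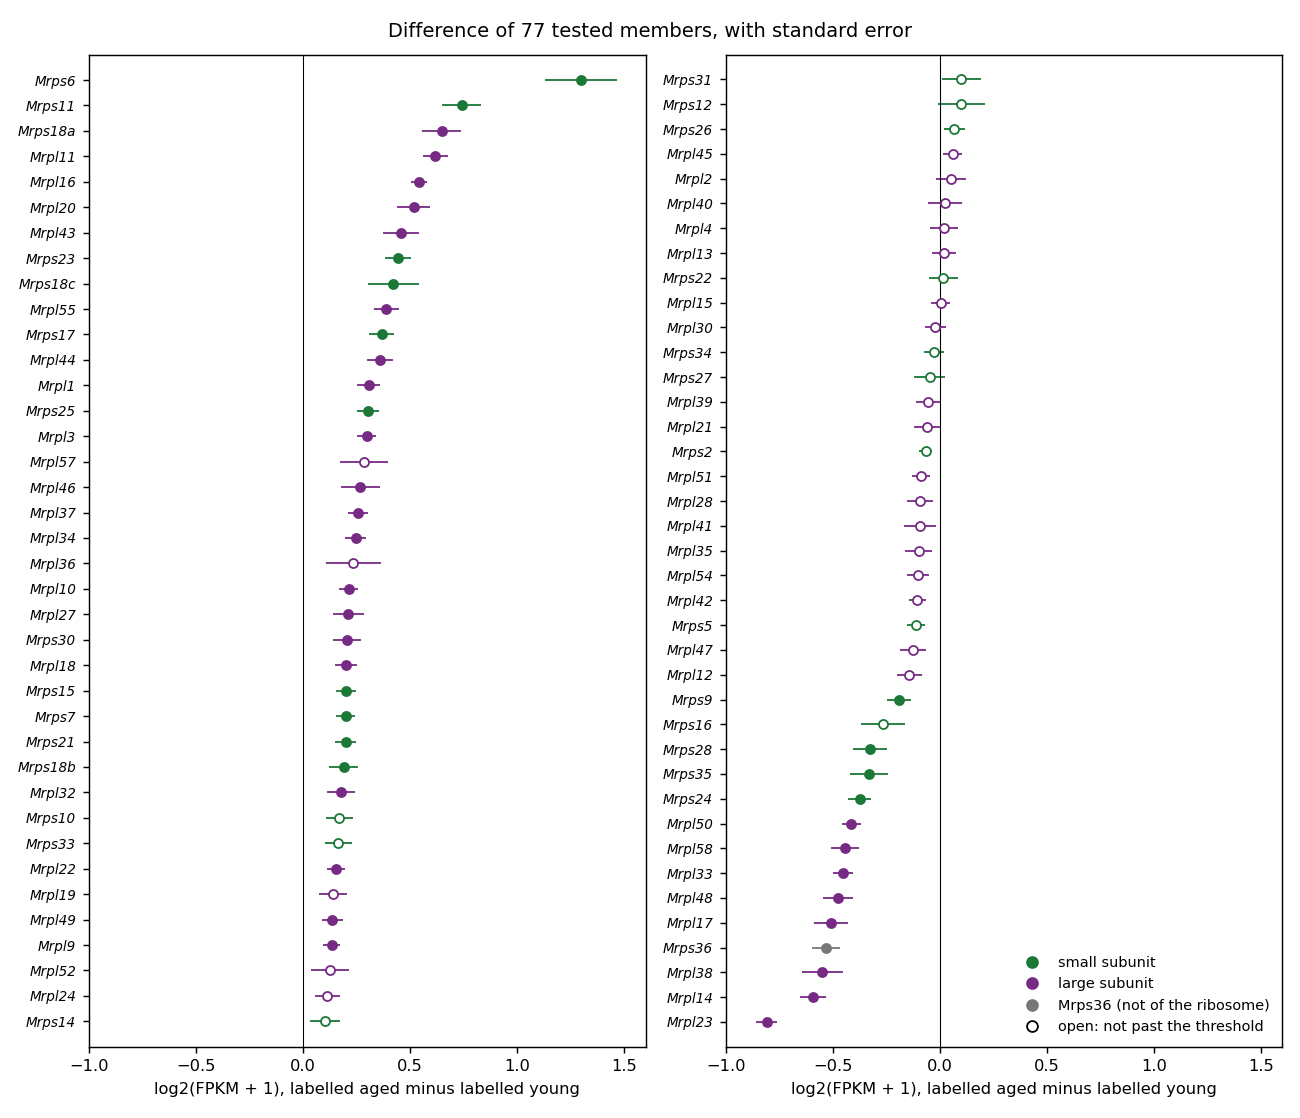
The difference of each of the 77 tested members, as log2(FPKM + 1), aged minus young, runs along the horizontal axis, and the bars are standard errors from limma. Filled points are the 43 members past the adjusted p threshold of 0.05, 30 on the right of the line and 13 on the left, with Mrps6 at 1.30 and Mrpl23 at -0.81 as the ends.

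Promoter sequence is given for the members with the largest rise and the largest fall, for a pair that share a start region and for 3 members chosen because their windows hold ETS or NRF1 letters. RefSeq start sites on GRCm38.p6 gave a window of 300 bases, 250 before the start and 50 after, for 69 of the 78 members. The search took 4 motifs on both strands, and each was counted also where it overlapped another. For NRF1, the letters were GCGCA, any 1 base and GCGC. NRF1 is a factor that drives many genes of mitochondria. The letters were CCGGAAG for ETS factors such as GABP, AANATGGC for YY1, where N is any base, and TATAAA for the TATA box. The NRF1 letters stood in 13 member windows (18.8%), in 5.19% of all 27025 genes with a window and in 11.9% of the 9151 tested protein-coding genes with one. The ETS letters stood in 26 member windows (37.7%), against 9.93% of all genes and 21.1% of tested protein-coding genes. The YY1 letters stood in 21 member windows (30.4%), against 6.96% and 10.4%, and 16 of their 24 matches in members began after the start. TATAAA stood in 5 member windows (7.25%), against 15.7% and 8.62%. Windows of the 30 members that rose held the NRF1 letters in 4, the ETS letters in 11 and the YY1 letters in 10. Among the 10 windows of members that fell the counts were 3, 4 and 2, and among the 28 of tested members not past the threshold they were 6, 10 and 9. A match describes letters only, and the stretches below are the 150 bases before the start, 5′ to 3′ on the strand of the gene.

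Mrps6 rose most, and none of the 4 motifs was found in its window.
Mrps6 (chr16:92058186-92058335, plus strand): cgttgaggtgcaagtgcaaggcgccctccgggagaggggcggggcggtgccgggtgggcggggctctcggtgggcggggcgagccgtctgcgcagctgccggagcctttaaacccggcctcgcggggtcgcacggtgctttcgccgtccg
By RefSeq starts, Mrps11 and Mrpl46, both higher in aged libraries, lie on opposite strands on either side of the 41 bases in capitals, chr7:78783090-78783130, which each gene carries as the other strand of its partner. In the deposited coordinates these genes overlap instead, since Mrps11 begins at 78783119 and Mrpl46 ends at 78783531. Of exon length, 7.97% in Mrps11 and 12.2% in Mrpl46 overlaps the partner on the other strand.
Mrps11 (chr7:78782981-78783130, plus strand): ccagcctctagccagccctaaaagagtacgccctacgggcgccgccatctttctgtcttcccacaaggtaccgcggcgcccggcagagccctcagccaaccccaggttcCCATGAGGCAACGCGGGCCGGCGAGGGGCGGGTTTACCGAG
Mrpl46 (chr7:78783090-78783239, minus strand): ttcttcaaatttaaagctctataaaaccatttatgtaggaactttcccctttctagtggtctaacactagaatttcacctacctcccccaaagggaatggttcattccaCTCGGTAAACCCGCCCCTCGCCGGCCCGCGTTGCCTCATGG
Mrps18a, the largest rise of the large subunit, has ETS letters in capitals that begin at position -26 from the start.
Mrps18a (chr17:46110854-46111003, plus strand): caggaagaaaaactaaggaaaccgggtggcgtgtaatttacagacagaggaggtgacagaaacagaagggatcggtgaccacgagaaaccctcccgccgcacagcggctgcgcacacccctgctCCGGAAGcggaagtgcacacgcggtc
Mrpl58 and Mrpl17 fell, and their capitals mark ETS letters from position -17 and NRF1 letters from position -49.
Mrpl58 (chr11:115403602-115403751, plus strand): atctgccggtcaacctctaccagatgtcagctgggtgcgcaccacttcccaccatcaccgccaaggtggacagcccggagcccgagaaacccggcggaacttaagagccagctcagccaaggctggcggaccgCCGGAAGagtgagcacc
Mrpl17 (chr7:105811088-105811237, minus strand): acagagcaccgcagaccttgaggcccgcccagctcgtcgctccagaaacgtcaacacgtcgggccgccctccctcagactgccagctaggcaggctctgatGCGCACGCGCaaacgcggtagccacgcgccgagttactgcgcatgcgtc
Mrpl23 fell most, and none of the 4 motifs was found in its window. By deposited coordinates the gene begins at 142532686, so this RefSeq window lies inside it. Bases before the deposited start were not searched.
Mrpl23 (chr7:142532882-142533031, plus strand): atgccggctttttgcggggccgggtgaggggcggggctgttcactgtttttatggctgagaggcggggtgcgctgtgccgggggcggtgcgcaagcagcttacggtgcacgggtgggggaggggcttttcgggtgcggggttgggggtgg

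In the small subunit, 10 of 26 tested members (38.5%) rose, 4 (15.4%) fell and 12 were not past the threshold. Of all tested genes, 27.7% rose and 32.3% fell. In either direction, 53.85% of tested small subunit members passed the threshold, where 60.0% of all tested genes did. The median log2(FPKM + 1) difference of the small subunit members was 0.10. Mrps6 (ENSMUSG00000039680, chr16:92058270-92112227, plus strand) encodes bS6m, whose bacterial counterpart pairs with S18 on the platform of the subunit. It measured 18.2, 15.3 and 13.02 FPKM in aged libraries, against 5.61, 4.47 and 7.22 FPKM in young libraries. The groups did not overlap, and both spread widely. The mean was 15.5 ± 2.62 FPKM in aged libraries and 5.77 ± 1.38 FPKM in young libraries, 2.70-fold higher, a log2(FPKM + 1) difference of 1.30 ± 0.17 (limma adjusted p = 0.000644). Part of its exon length, 19.9%, is shared on the same strand with other annotated genes, among them Slc5a3, the sodium-coupled myo-inositol carrier. Slc5a3 itself averaged 12.1 ± 0.280 FPKM in aged libraries and 4.23 ± 0.206 FPKM in young libraries (SD, n = 3 each), a log2(FPKM + 1) difference of 1.33 (limma adjusted p = 3.93e-06). The sources used here do not say how reads of shared exons were divided, and the part of Slc5a3 in the value of Mrps6 was not tested.

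Mrps11 (ENSMUSG00000030611, chr7:78783119-78792989, plus strand) encodes uS11m, also on the platform, where the messenger RNA leaves. It measured 18.4, 18.2 and 14.7 FPKM in aged libraries, against 9.28, 9.71 and 10.4 FPKM in young libraries, with every aged value above every young one. The ratio of means was 1.75, with a log2(FPKM + 1) difference of 0.74 ± 0.09 (limma adjusted p = 0.000469). Mrps23, a protein added in the mitochondrial lineage, stood at 38.4, 40.97 and 36.3 FPKM in aged libraries and 26.2, 29.6 and 28.6 FPKM in young libraries. These groups were also separate, and the difference was 0.44 ± 0.06 on the log2(FPKM + 1) scale (limma adjusted p = 0.000834). Mrps17, the uS17m protein that binds ribosomal RNA in the body of the subunit, had 9.19, 9.50 and 8.52 FPKM in aged libraries and 6.86, 6.37 and 7.19 FPKM in young libraries, a log2(FPKM + 1) difference of 0.37 ± 0.06 (limma adjusted p = 0.00167). Mrps21, the bS21m protein, was highest of all members in level and rose by less, with 122, 121 and 109 FPKM in aged libraries and 99.7, 103 and 103 FPKM in young libraries. Its log2(FPKM + 1) difference was 0.20 ± 0.05 (limma adjusted p = 0.0129), and its adjusted p was 0.149 with only young library 2 among the young, over a range of 0.000788 to 0.149 in all alternatives.

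The falls in the small subunit numbered 4. Mrps24, which encodes uS3m at the entry of the messenger RNA channel, measured 24.95, 24.7 and 22.4 FPKM in aged libraries and 31.2, 32.8 and 30.2 FPKM in young libraries. All aged values were lower, and the log2(FPKM + 1) difference was -0.37 ± 0.05 (limma adjusted p = 0.000913). Of its exon length, 15.4% is shared on the same strand with Urgcp, which was higher in aged libraries (limma adjusted p = 0.000631). Mrps35, a mitochondria-specific protein and the tested member with the lowest FPKM, had 1.34, 1.54 and 1.22 FPKM in aged libraries and 1.90, 1.81 and 2.24 FPKM in young libraries. Its difference of -0.33 ± 0.09 on that scale (limma adjusted p = 0.0154) rested on 606 reads over the aged libraries and 887 over the young. With only young library 2 among the young its adjusted p was 0.182, over a range of 0.000578 to 0.182 in all alternatives. Mrps28, named bS1m in the unified nomenclature, had 13.7, 13.4 and 13.8 FPKM in aged libraries, a narrow range, against 15.7, 19.8 and 16.8 FPKM in young libraries, and differed by -0.32 ± 0.08 (limma adjusted p = 0.0103). Mrps9 encodes uS9m of the subunit's head and averaged 7.13 ± 0.238 FPKM in aged libraries and 8.28 ± 0.557 FPKM in young libraries (limma adjusted p = 0.0222). Its call was lost without aged library 2, without young library 3 and under median centring, with adjusted p of 0.0119 to 0.112 over all alternatives.

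Several proteins that matter for decoding or disease did not pass the threshold. Mrps12 encodes uS12m, which helps check the codon match in the decoding centre. It had 24.5, 29.5 and 24.8 FPKM in aged libraries and 20.9, 25.03 and 27.6 FPKM in young libraries, ranges that overlapped (limma adjusted p = 0.471). Mrps16 and Mrps22 are genes in which inherited human variants impair the respiratory chain. Mrps16 had 6.59, 7.81 and 5.61 FPKM in aged libraries and 7.76, 8.19 and 8.56 FPKM in young libraries, with only aged library 2 inside the young range (limma adjusted p = 0.0611). Without that library its adjusted p was 0.0101, over a range of 0.0101 to 0.267 in all alternatives. Mrps22 overlapped, at 7.43, 6.68 and 6.21 FPKM in aged libraries and 6.36, 6.94 and 6.72 FPKM in young libraries.

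**Figure D2:**
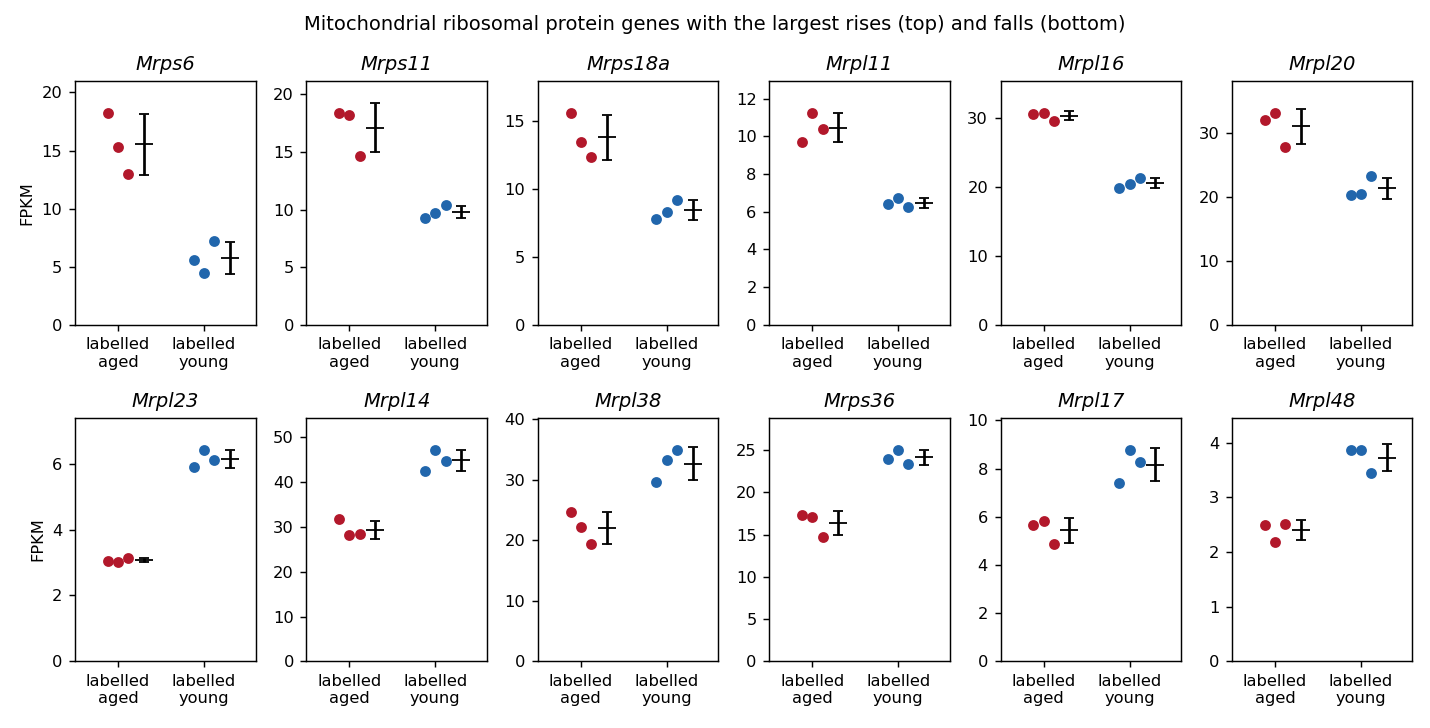
Each panel plots FPKM of 1 member, with 1 point per library, aged on the left of each panel and young on the right, and the mean with its SD beside the points (n = 3 each). The upper row holds the 6 largest rises, from Mrps6 to Mrpl20, and the lower row the 6 largest falls, from Mrpl23 to Mrpl48, and in no panel do the groups overlap.

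A group of 3 members descends from the bacterial S18 protein, and only Mrps18c kept its place as bS18m of the small subunit. Mrps18b sits elsewhere in the small subunit as mS40, and Mrps18a sits in the large subunit as mL66. All 3 rose, by unequal amounts. Mrps18a (ENSMUSG00000023967, chr17:46110986-46128910, plus strand) had 15.6, 13.5 and 12.4 FPKM in aged libraries and 7.81, 8.29 and 9.23 FPKM in young libraries, separate ranges with a log2(FPKM + 1) difference of 0.65 ± 0.09 (limma adjusted p = 0.000925). Mrps18c had 14.7, 17.2 and 14.9 FPKM in aged libraries and 9.28, 12.9 and 12.2 FPKM in young libraries. Its ranges came close without meeting, and the difference was 0.42 ± 0.12 on the same scale (limma adjusted p = 0.0202). Its adjusted p was 0.0671 without aged library 2 and 0.115 with only young library 2 among the young, over a range of 0.00115 to 0.115 in all alternatives. Mrps18b had 10.2, 9.09 and 9.42 FPKM in aged libraries and 8.40, 7.53 and 8.87 FPKM in young libraries, and differed by 0.19 ± 0.07 (limma adjusted p = 0.0464). The call of Mrps18b was lost without any 1 of the 3 aged libraries and without young library 1 or 2, with adjusted p of 0.0157 to 0.136 over all alternatives.

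In the large subunit, 20 of 50 tested members (40%) rose, 8 (16%) fell and 22 were not past the threshold. Of all tested genes, 27.7% rose and 32.3% fell. In either direction, 56% of tested large subunit members passed the threshold, where 60.0% of all tested genes did. The median log2(FPKM + 1) difference of the large subunit members was 0.09. The stalk of the large subunit, where translation factors dock, is built from Mrpl10, Mrpl11 and Mrpl12. Mrpl11, the uL11m protein at its base, had 9.73, 11.3 and 10.4 FPKM in aged libraries and 6.39, 6.75 and 6.23 FPKM in young libraries. The ranges were separate, the means stood in a ratio of 1.62, and the log2(FPKM + 1) difference was 0.62 ± 0.06 (limma adjusted p = 0.000165). Mrpl10, the uL10m protein that carries the stalk dimers, rose less, with 44.8, 43.8 and 40.6 FPKM in aged libraries and 36.1, 37.97 and 36.9 FPKM in young libraries (limma adjusted p = 0.00544). Its adjusted p was 0.113 with only young library 2 among the young, over a range of 0.000383 to 0.113 in all alternatives. Mrpl12, the dimer itself, was not past the threshold, at 31.5, 30.6 and 27.5 FPKM in aged libraries and 31.3, 34.1 and 33.7 FPKM in young libraries, with 1 aged value inside the young range (limma adjusted p = 0.0796).

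Around the catalytic centre of the large subunit, Mrpl16 encodes uL16m, whose bacterial counterpart helps place the incoming tRNA. It had 30.6, 30.7 and 29.6 FPKM in aged libraries and 19.8, 20.4 and 21.2 FPKM in young libraries. Both groups were tight and far apart, with a log2(FPKM + 1) difference of 0.54 ± 0.04 (limma adjusted p = 3.75e-05). Mrpl20 encodes bL20m, a protein needed early in assembly of the bacterial subunit, and had 32.1, 33.2 and 27.9 FPKM in aged libraries and 20.4, 20.6 and 23.3 FPKM in young libraries, a log2(FPKM + 1) difference of 0.52 ± 0.08 (limma adjusted p = 0.00125). Mrpl3, the uL3m protein, rose to 8.51, 7.93 and 8.11 FPKM in aged libraries, against 6.57, 6.21 and 6.65 FPKM in young libraries, a log2(FPKM + 1) difference of 0.30 ± 0.05 (limma adjusted p = 0.00146). Mrpl2, the uL2m protein at the core of the subunit, overlapped, at 48.5, 49.99 and 44.8 FPKM in aged libraries and 42.1, 46.2 and 49.9 FPKM in young libraries (limma adjusted p = 0.542). Mrpl28, the bL28m protein, overlapped too, at 47.7, 45.9 and 42.5 FPKM in aged libraries and 45.6, 51.4 and 48.4 FPKM in young libraries.

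Mrpl23, Mrpl17 and Mrpl14 carried some of the largest falls. Mrpl23 (ENSMUSG00000037772, chr7:142532686-142540747, plus strand) encodes uL23m at the mouth of the exit tunnel, from which the new protein emerges. It had 3.05, 3.03 and 3.15 FPKM in aged libraries, against 5.89, 6.43 and 6.12 FPKM in young libraries. The aged values were almost equal and all far below the young ones, 1.998-fold lower by the means, with a log2(FPKM + 1) difference of -0.81 ± 0.05 (limma adjusted p = 2.64e-05). Mrpl17, the bL17m protein near that mouth, had 5.64, 5.84 and 4.86 FPKM in aged libraries and 7.42, 8.79 and 8.28 FPKM in young libraries, a log2(FPKM + 1) difference of -0.51 ± 0.08 (limma adjusted p = 0.00163). Mrpl14 (ENSMUSG00000023939, chr17:45686322-45698495, plus strand) encodes uL14m on the face that meets the small subunit. It had 31.7, 28.2 and 28.3 FPKM in aged libraries, against 42.5, 47.3 and 44.7 FPKM in young libraries, and no value of 1 group reached the other. Its log2(FPKM + 1) difference was -0.59 ± 0.06 (limma adjusted p = 0.000202), although 11.2% of its exon length overlaps Tmem63b on the other strand.

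The central protuberance, the crown of the large subunit, holds Mrpl38, Mrpl40, Mrpl46, Mrpl48 and Mrpl58 among others, a grouping made here after the values were seen. These members are only a part of it, and their values give no balance of rises and falls for the region. Mrpl38 had 24.7, 22.2 and 19.4 FPKM in aged libraries and 29.7, 33.3 and 35.03 FPKM in young libraries. Its groups were separate, with a log2(FPKM + 1) difference of -0.55 ± 0.10 (limma adjusted p = 0.0024). Mrpl58, also called ICT1, can release stalled peptides and had 8.27, 8.74 and 7.53 FPKM in aged libraries and 10.8, 12.1 and 11.5 FPKM in young libraries, a log2(FPKM + 1) difference of -0.44 ± 0.06 (limma adjusted p = 0.00111). Mrpl48 had 2.49, 2.19 and 2.52 FPKM in aged libraries and 3.88, 3.86 and 3.45 FPKM in young libraries, a log2(FPKM + 1) difference of -0.48 ± 0.07 (limma adjusted p = 0.00099). In contrast, Mrpl46 rose, at 13.4, 10.8 and 11.1 FPKM in aged libraries and 8.87, 10.4 and 9.42 FPKM in young libraries (limma adjusted p = 0.0367). Its call was lost without aged library 1 and without young library 1 or 3, with adjusted p of 0.00954 to 0.392 over all alternatives. Mrpl40 overlapped, at 17.4, 14.5 and 15.2 FPKM in aged libraries and 14.1, 16.5 and 15.6 FPKM in young libraries.

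Other large subunit members past the threshold included Mrpl43, Mrpl44 and Mrpl55 among the rises. Mrpl43 had 35.2, 35.2 and 29.8 FPKM in aged libraries and 22.7, 23.03 and 26.5 FPKM in young libraries, a log2(FPKM + 1) difference of 0.46 ± 0.08 (limma adjusted p = 0.00317). In GENCODE vM21, 33.4% of its exon length overlaps Twnk, the mitochondrial DNA helicase, on the other strand. By deposited coordinates the genes do not overlap, and Twnk begins 116 bases beyond Mrpl43. The length of Mrpl43 also differed, at 1213 bases as deposited and 1520 bases in GENCODE vM21. Twnk averaged 8.76 ± 0.534 FPKM in aged libraries and 8.88 ± 0.649 FPKM in young libraries and was not past the threshold (limma adjusted p = 0.85). Mrpl55, the bL31m protein, had 23.1, 23.3 and 20.5 FPKM in aged libraries and 16.2, 16.6 and 17.5 FPKM in young libraries (limma adjusted p = 0.00121). Mrpl44 has an RNase III fold, and human variants of it cause heart muscle disease. It had 13.6, 13.8 and 15.8 FPKM in aged libraries and 10.7, 11.3 and 10.99 FPKM in young libraries. Its log2(FPKM + 1) difference was 0.36 ± 0.06 (limma adjusted p = 0.00213), and its adjusted p was 0.062 with only young library 2 among the young, over a range of 0.0002 to 0.062 in all alternatives. Mrps30, which despite its name is mL65 of the large subunit, had 4.82, 4.83 and 4.19 FPKM in aged libraries and 4.06, 3.74 and 3.78 FPKM in young libraries, with adjusted p of 0.0296 (limma) and a range of 0.00264 to 0.127 over all alternatives. Its call was lost without aged library 1 or 2 and without young library 2 or 3.

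Among the remaining falls were Mrpl33 and Mrpl50. Mrpl33, the short bL33m protein, had 7.64, 7.85 and 7.23 FPKM in aged libraries and 10.3, 11.1 and 10.8 FPKM in young libraries, a log2(FPKM + 1) difference of -0.45 ± 0.05 (limma adjusted p = 0.000231). Mrpl50, a mitochondria-specific protein, had 12.5, 13.7 and 13.6 FPKM in aged libraries and 18.02, 17.5 and 18.4 FPKM in young libraries, a log2(FPKM + 1) difference of -0.41 ± 0.04 (limma adjusted p = 0.000254). Each of these kept its groups apart. Mrpl41, a mitochondria-specific protein, overlapped at 22.8, 21.98 and 19.3 FPKM in aged libraries and 20.99, 23.3 and 24.2 FPKM in young libraries, and Mrpl35, the bL35m protein, was not past the threshold either (limma adjusted p = 0.326 for Mrpl41 and 0.22 for Mrpl35). Mrpl53 was listed at 0 in all 6 libraries. Of its exon length, 88.0% is covered by the annotated exons of Ccdc142os and Gm42688. How reads of shared exons were divided is not known, so absent RNA and uncounted reads cannot be told apart here.

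Mrps36 carries a small subunit name but is a part of the 2-oxoglutarate dehydrogenase complex of the citric acid cycle, and it was counted in neither subunit. It had 17.3, 17.1 and 14.8 FPKM in aged libraries and 23.98, 25.05 and 23.3 FPKM in young libraries. The ranges were separate, with a mean 1.47-fold lower in aged libraries and a log2(FPKM + 1) difference of -0.53 ± 0.06 (limma adjusted p = 0.000468).

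Members were also split by descent. Of 46 tested members with a bacterial homologue, 20 (43.5%) rose and 7 (15.2%) fell, with a median log2(FPKM + 1) difference of 0.12. Of 30 mitochondria-specific members, 10 (33.3%) rose and 5 (16.7%) fell, with a median of 0.06. The difference between these groups was not tested. Of all tested genes, 27.7% rose and 32.3% fell. Summed over members, the level was 1491, 1476 and 1367 FPKM in aged libraries and 1310, 1376 and 1402 FPKM in young libraries, so aged library 3 lay inside the young range. As a share of the FPKM of all nuclear protein-coding genes the sums were 0.586%, 0.585% and 0.552% in aged libraries and 0.513%, 0.528% and 0.535% in young libraries, which did not overlap. Of recovered reads, members held 0.310%, 0.307% and 0.286% in aged libraries and 0.276%, 0.286% and 0.291% in young libraries. By this second share aged library 3 lay inside the young range. The ratio of summed small to summed large subunit FPKM was 0.472, 0.488 and 0.473 in aged libraries and 0.452, 0.450 and 0.437 in young libraries. Mrps21 and other high members weigh most in these sums.

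Levels of the 77 tested members spanned a wide range. Their mean FPKM over all 6 libraries ran from 1.68 for Mrps35 to 109.6 for Mrps21, a 65.4-fold range with a median of 13.97, and 47 members had a mean of at least 10 FPKM. Next to Mrps21 stood Mrpl2 and Mrpl28, each at 46.9 FPKM, then Mrpl10 at 40.0 FPKM and Mrpl14 at 37.1 FPKM. At the low end, Mrpl35 followed Mrps35 at 1.83 FPKM, then Mrpl48 at 3.06, Mrps25 at 3.78 and Mrps30 at 4.24 FPKM. All values were apart at the step below Mrps21 and between Mrpl48 and Mrpl35. Mrpl2 exceeded Mrpl10, and Mrps30 exceeded Mrps25, within each of the 6 libraries, although the values over all libraries overlapped. The other neighbours among these named members changed order between libraries. Mrps25, the mitochondria-specific mS25, rose to 4.24, 4.48 and 4.14 FPKM in aged libraries, against 3.23, 3.23 and 3.37 FPKM in young libraries (limma adjusted p = 0.00204), while Nr2c2, which overlaps 69.8% of its exon length, fell by 0.36 on the log2(FPKM + 1) scale (limma adjusted p = 0.00301).

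FPKM divides by a gene length, and for 73 of 78 members the table's length equalled the union of all GENCODE vM21 exons of the gene. The median length of members was 2214 bases in the table and 1302 bases for the principal protein-coding transcript in GENCODE. For Mrpl33 the table's length was 15.3 times the transcript's. Divided by principal transcript length, the levels ran from 2.06 for Mrpl35 to 167.1 for Mrps21, a range of 81.0-fold. Mrpl33 moved from rank 53 to rank 3, Mrpl13 from 55 to 8, Mrps10 from 68 to 15 and Mrpl23 from 72 to 27. These 4 moved furthest, and the ratio of their aged to their young mean does not depend on the length used.

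**Figure D3:**
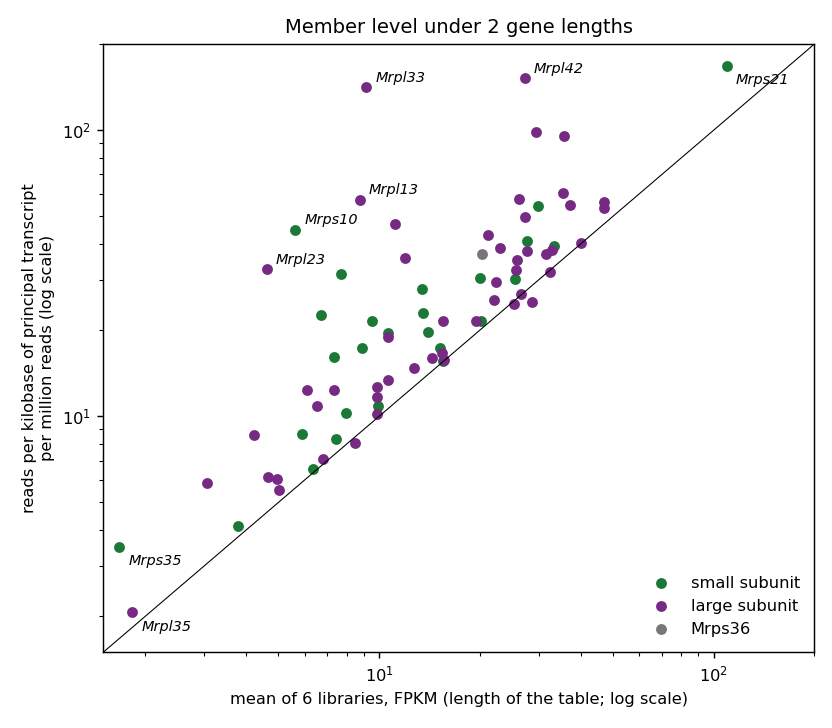
Each point is 1 of 77 members, with mean FPKM over 6 libraries on the horizontal axis and reads per kilobase of principal transcript, scaled to library size, on the vertical axis, both log scales. The line marks equal values, and Mrpl33 stands far above it, at 9.16 on the horizontal and 141 on the vertical axis, while Mrps21 is the highest on both.

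Many members sit head to head with another gene. For 33 of 78 members (42.3%) a protein-coding gene on the other strand starts within 1000 bases, against 16.9% of tested protein-coding genes (1980 of 11693). The members form 32 such pairs, and in 30 of them both genes were tested. In 9 of these 30 pairs both genes passed the threshold, where 60.0% of all tested genes, taken singly, passed it. Directions were the same in 5 pairs and opposite in 4. The share over all head-to-head pairs was not computed. Both rose in Mrps11 with Mrpl46, Mrps18c with Helq, Mrpl27 with Eme1 and Mrps18b with Ppp1r10, and both fell in Mrpl48 with Rab6a. Eme1, a subunit of a DNA junction endonuclease, averaged 10.4 ± 0.491 FPKM in aged libraries and 5.45 ± 0.516 FPKM in young libraries (SD, n = 3 each), whereas Mrpl27 averaged 24.1 ± 2.23 FPKM in aged libraries and 20.7 ± 1.19 FPKM in young libraries. The call of Mrpl27 was lost without aged library 1 or 2 and without young library 1 or 3, with adjusted p of 0.0128 to 0.409 over all alternatives. Mrpl44 with Wdfy1, Mrpl10 with Lrrc46, Mrpl18 with Tcp1 and Mrps7 with Gga3 went opposite ways, and the call of Tcp1 was lost without aged library 2 (adjusted p over all alternatives 0.0127 to 0.156).

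Shared exons and copies could blur some values. In GENCODE vM21, exons of 33 members overlap another gene, 18 of them over at least 10% of their length. Mrpl43 counts among the 18 by these exons only, not by deposited coordinates. The sources used here do not say whether counting used strand. Members named above include Mrps18c, with 23.2% of its exon length shared on the same strand with Gm43511. On the other strand the overlap was 30.5% for Mrps18b, 14.1% for Mrpl10, 13.1% for Mrpl12 and 12.2% for Mrpl46. Of 17 tested members with at least 10% overlap, 9 (52.9%) rose and 2 (11.8%) fell, and of 60 with less, 21 (35.0%) rose and 11 (18.3%) fell. Of all tested genes, 27.7% rose and 32.3% fell, and the difference between the 2 overlap groups was not tested. Named pseudogenes of members held 960 reads in all, 0.320% of the 300007 reads on members, and 856 of these were on Mrpl48-ps. That copy had 9.14, 9.64 and 10.6 FPKM in aged libraries and 15.6, 15.3 and 17.9 FPKM in young libraries, the same direction as Mrpl48, with a log2(FPKM + 1) difference of -0.68 (limma adjusted p = 0.000291). How reads were divided between Mrpl48 and its copy is not known, so both values are uncertain.

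Genes that build, feed or control the mitochondrial ribosome were followed as lists. Of 85 tested genes in all, 24 (28.2%) rose, 25 (29.4%) fell and 36 were not past the threshold. These shares lie near those of all tested genes, 27.7% and 32.3%. The median log2(FPKM + 1) difference of the 85 genes was -0.04. Among the 5 ribosomal proteins without an Mrp number, Dap3, which is mS29 of the small subunit, fell to 15.4 ± 0.295 FPKM in aged libraries, against 20.2 ± 0.150 FPKM in young libraries (limma adjusted p = 9.45e-05). Chchd1, which is mS37, averaged 30.1 ± 1.41 FPKM in aged libraries and 26.6 ± 1.03 FPKM in young libraries (limma adjusted p = 0.0161), and its adjusted p ran over 0.00415 to 0.175 in all alternatives, with the call lost without aged library 1 or 2. Aurkaip1 and Ptcd3 were not past the threshold, nor was the fifth, Gadd45gip1. The mitochondrial ribosomal RNAs went opposite ways. The small subunit RNA mt-Rnr1 averaged 308 ± 19.4 FPKM in aged libraries and 625 ± 27.3 FPKM in young libraries, a log2(FPKM + 1) difference of -1.02 ± 0.06 (limma adjusted p = 2.06e-05). The large subunit RNA mt-Rnr2 averaged 222 ± 4.72 FPKM in aged libraries and 201 ± 5.36 FPKM in young libraries, a log2(FPKM + 1) difference of 0.14 ± 0.04 (limma adjusted p = 0.012). The sources used here do not say whether poly(A) RNA was selected.

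Of 26 tested assembly factors, 10 (38.5%) rose and 8 (30.8%) fell, where 27.7% and 32.3% of all tested genes did. Fastkd2, an RNA-binding protein of the large subunit RNA, averaged 4.90 ± 0.377 FPKM in aged libraries and 2.85 ± 0.0807 FPKM in young libraries, a log2(FPKM + 1) difference of 0.61 ± 0.06 (limma adjusted p = 0.000209). Trub2, a pseudouridine synthase homologue, also rose, at 7.96 ± 0.271 FPKM in aged libraries and 5.62 ± 0.135 FPKM in young libraries (limma adjusted p = 0.000195). Malsu1, which holds the face of Mrpl14 free until the subunits join, fell to 4.99 ± 0.212 FPKM in aged libraries, against 7.33 ± 0.337 FPKM in young libraries (limma adjusted p = 0.000272). Noa1, a GTPase of small subunit assembly, fell to 6.90 ± 0.237 FPKM in aged libraries, against 9.26 ± 0.0989 FPKM in young libraries (limma adjusted p = 0.000265).

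Of 15 translation factors and helpers, 5 (33.3%) rose and 5 (33.3%) fell, where 27.7% and 32.3% of all tested genes did. Tufm, the elongation factor that brings charged tRNA, averaged 29.5 ± 2.31 FPKM in aged libraries and 42.6 ± 0.680 FPKM in young libraries, a log2(FPKM + 1) difference of -0.52 ± 0.06 (limma adjusted p = 0.000289). Oxa1l, the insertase at the tunnel exit, averaged 12.9 ± 0.413 FPKM in aged libraries and 19.6 ± 0.371 FPKM in young libraries, a difference of -0.57 ± 0.04 (limma adjusted p = 3.27e-05). Mtrf1l, a release factor, fell too (limma adjusted p = 0.00107). Lrpprc, which stabilises mitochondrial messenger RNA, rose to 16.00 ± 0.296 FPKM in aged libraries, against 10.5 ± 0.368 FPKM in young libraries (limma adjusted p = 3.84e-05). Of 17 mitochondrial aminoacyl-tRNA synthetases, which charge the tRNAs, 2 (11.8%) rose and 5 (29.4%) fell. The falls with the smallest p were Iars2, Aars2, Vars2 and Lars2. Iars2, the isoleucine enzyme, averaged 7.48 ± 0.102 FPKM in aged libraries and 13.5 ± 0.394 FPKM in young libraries, a difference of -0.78 ± 0.04 (limma adjusted p = 1.14e-05).

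Of 11 genes for transcription and upkeep of mitochondrial DNA, Mgme1, Polrmt, Mterf1a and Tfam rose, or 36.4%, where 27.7% of all tested genes did. In limma 0 fell at an adjusted p of 0.05, also with voom, and 1, the topoisomerase gene Top1mt, was lower at an unadjusted p of 0.05. Mgme1, an exonuclease of mitochondrial DNA replication, averaged 14.7 ± 0.364 FPKM in aged libraries and 8.39 ± 0.700 FPKM in young libraries, a log2(FPKM + 1) difference of 0.74 ± 0.06 (limma adjusted p = 7.85e-05). Tfam, which packs and transcribes the genome, averaged 15.6 ± 0.346 FPKM in aged libraries and 13.4 ± 0.585 FPKM in young libraries (limma adjusted p = 0.0056). Of 9 nuclear regulators of mitochondrial genes, 5 (55.6%) fell and 1 (11.1%) rose, where 32.3% and 27.7% of all tested genes did. Nrf1 fell to 2.41 ± 0.160 FPKM in aged libraries, against 4.38 ± 0.268 FPKM in young libraries, a log2(FPKM + 1) difference of -0.66 ± 0.06 (limma adjusted p = 0.000175). Gabpa, the DNA-binding subunit of GABP, fell to 8.84 ± 0.570 FPKM in aged libraries, against 13.5 ± 0.261 FPKM in young libraries (limma adjusted p = 0.000123). Esrra, a nuclear receptor of energy metabolism, averaged 14.2 ± 0.156 FPKM in aged libraries and 21.4 ± 1.06 FPKM in young libraries, Myc, a growth regulator, averaged 39.8 ± 1.53 FPKM in aged libraries and 49.3 ± 1.83 FPKM in young libraries, and Ppargc1b fell as well (limma adjusted p = 5.85e-05 for Esrra, 0.000899 for Myc and 0.00228 for Ppargc1b). Pprc1, a coactivator, was the one that rose, to 9.59 ± 0.185 FPKM in aged libraries, against 8.38 ± 0.467 FPKM in young libraries, with adjusted p of 0.0172 in limma and 0.000986 to 0.167 over all alternatives, the call being lost without aged library 2. Yy1, Ppargc1a and Gabpb1 were not past the threshold.

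**Figure D4:**
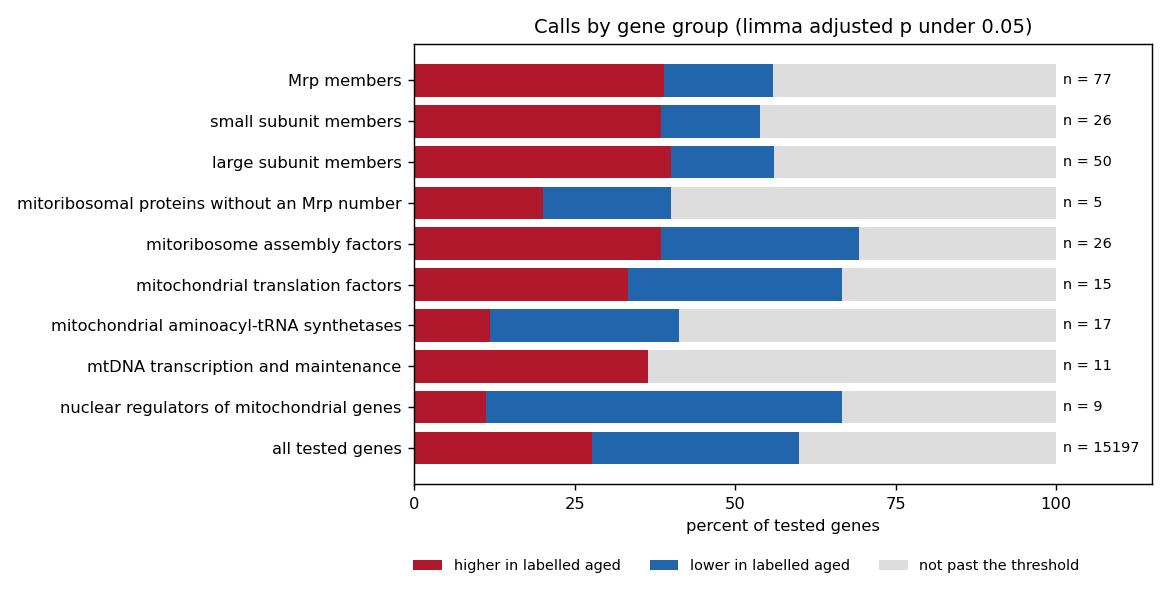
The bars give the percent of tested genes in each group that were higher in aged libraries, lower in aged libraries or not past the adjusted p threshold of 0.05, with the number of tested genes at the right. Members show 39.0% higher and 16.9% lower, where all tested genes show 27.7% and 32.3%, and the nuclear regulators have the largest share of falls among the lists, 55.6%.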

How the data were processed

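Total RNA of 6 mouse libraries was sequenced in pairs on an Illumina instrument, per the labels' protocols, and aligned with HISAT2 2.0.5 to mm10, per the submitters' processing notes. The sources used here name no counting program, annotation or strand setting. The authors deposited 1 table of FPKM values per gene and library. Multiplied by gene length, 100% of the values above 0 were whole multiples of a step within a tolerance of 0.01, which gave back reads per gene. A floor of 3 reads on a gene of 1 kilobase corresponds to 0.173 to 0.177 FPKM, for counting error only. Members had 119 to 1844 reads each per library.

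Values were tested as log2(FPKM + 1), computed from the deposited FPKM, a scale that understates changes of low genes. Genes with at least 0.5 FPKM in at least 3 libraries entered limma 3.58.1 in R 4.3.3, with a trend in the moderation, 2-sided tests and p adjusted by Benjamini-Hochberg across the 15197 genes. Ratios of means are on the FPKM scale. Each library counted as 1 sample. Replicates differed by more than sampling noise, with chi-square per degree of freedom from 2.25 to 4.93 within groups. This spread cannot show whether the libraries are different animals.

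The members and lists were chosen with earlier results of these data known. Members named are the 12 largest rises and 12 largest falls past the threshold, the 5 highest and 5 lowest levels, those not tested and 16 chosen for their role. Other lists name up to 4 genes with the smallest p and every nuclear regulator. Neighbours, and members named beside them or for a region of the ribosome, were chosen after their values were seen. Exons came from GENCODE vM21, in which 73 of 78 members have the coordinates of the table, and promoters from RefSeq on GRCm38.p6. Tables and figures were made with pandas 2.3.3 and matplotlib 3.10.9 in Python 3.11.15. The limma step was tested on simulated data. The alternatives were 13 planned kinds, covering pseudocount, filter, scaling, moderation, genes fitted, replicate block, libraries left out, threshold and limma's voom on recovered reads, and 2 added after the data were seen.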

Additional observations from a re-analysis of the deposited data

How the results depend on the processing

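None of the 43 called members changed direction under any of the 19 alternative settings, and 26 kept their call at 0.05 in all of them. Leaving out 1 library gave 36 to 44 called members, 23 to 31 higher and 12 to 14 lower, with 8155 to 8708 genes called in all. In the small subunit this gave 8 to 11 higher and 3 to 4 lower, in the large subunit 14 to 22 higher and 8 to 9 lower, and among the other genes of mitochondrial translation 39 to 50 called, 16 to 22 of them higher and 22 to 28 lower. With only young library 2 among the young, an alternative added after the data were seen, the counts fell to 18 higher members, 2 lower small subunit members, 11 higher large subunit members and 31 other genes, 11 of them higher, with fewer samples in the fit and the lone young library assumed to vary like the aged ones. A threshold of 0.01 gave 19, 1, 12, 32 and 12 for the same counts. Replicate numbers did not pair the libraries, since deviations of same-numbered libraries correlated at 0.01, -0.01 and 0.02, and the fit with the replicate block called 39 members and 8441 genes. Called members numbered 35 with no filter on low values (9330 of 33676 genes tested, 51.6% of the called ones higher), 38 without the trend (9074), 46 after rescaling to TPM (9679 of 19206), 49 with median centring (9014), 49 among protein-coding genes only (8264 of 11693) and 50 with voom (9513), against 43 members and 9115 genes as reported. Median centring shifted the median difference of all genes from -0.03 to 0.04. Values that reversed all belonged to genes not past the threshold. Log2 differences became -0.0438 without aged library 1, -0.0135 without young library 1 and -0.0338 with only young library 2 for Mrps22, and -0.0551 without aged library 3 and -0.0013 without young library 3 for Yy1. Without young library 1 they became -0.0089 for Mrpl2, -0.0049 for Mrps12 and -0.0051 for Aurkaip1, which was -0.0949 with only young library 2. Mrpl40 became -0.0481 without aged library 1, -0.0354 without young library 1 and -0.0744 with only young library 2. Twnk became 0.0501 with median centring, 0.0096 in TPM, 0.0167 with voom, 0.0210 without aged library 1, 0.0374 without young library 3 and 0.0226 with only young library 2. Leaving out 1 library in turn gave ranges up to 0.0691 for Mrps22, 0.0582 for Yy1, 0.1114 for Mrpl2, 0.1857 for Mrps12, 0.2447 for Aurkaip1 and 0.0759 for Mrpl40, and down to -0.0572 for Twnk. The cause was not tested. The range of member levels rose to 81.0-fold under principal transcript length, by the change of length itself. Depth was least for Mrpl35, with 371 reads over the aged libraries and 417 over the young, and for Mrps6 in the young libraries, with 458.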
